A study of Mus musculus with 16 samples.

Results

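The 10 genes examined belong to the motors that carry cargo along axons, and were followed in spinal cords of 16 transgenic mice. They were *Kif1a*, *Kif1b*, *Kif5b*, *Kif5c*, *Klc1*, *Dync1h1*, *Dync1i1*, *Dync1li1*, *Actr1a* and *Dctn2*, and 10 of 10 were present among the 18167 genes of the expression table. They were chosen by gene symbol with earlier results of these data known, so their counts beside those of all genes are descriptions. Kinesins walk toward the plus ends of microtubules, which point away from the cell body in axons, and carry vesicles, mitochondria and other cargo outward. Cytoplasmic dynein, a complex of heavy, intermediate, light intermediate and light chains, works with its activator dynactin in the opposite direction and returns endosomes and signals to the cell body. Motor neurons have some of the longest axons of the body, and inherited changes in several motor and dynactin genes cause motor neuron or sensory neuron disease.

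RNA-Seq was run on poly(A) RNA of spinal cord from male mice that express human profilin1 (hPFN1), an actin-binding protein, from a transgene in the MoPrP.Xho expression plasmid; the sources used here do not say which cells express it. Mutant mice of the line 838Kiaei carry hPFN1 with the G118V change, which causes familial ALS, and control mice of the line 850Kiaei carry unchanged hPFN1, both on the C57BL/6N background. All 16 mice are transgenic, and mice without a transgene were not analysed here. Mutant mice were sampled young and presymptomatic (MY, 3 mice) or old and at end-stage (MO, 5 mice). End-stage was reached when a mouse could not right itself within a set time. Controls were sampled young (WY, 3 mice) or old (WO, 5 mice). The WY and MY mice were 50 days old. The MO mice MO1 to MO5 were 198, 190, 245, 224 and 175 days old. Of the WO mice, WO1, WO2 and WO3 were 190 days old and WO4 and WO5 were 294 days old, older than every MO mouse. Libraries belonged to 2 batches by their labels, with MO4, MO5, WO4 and WO5 in batch 2 and the other 12 mice in batch 1. Each mouse gave 1 library.

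Levels are log2(1 + FPKM), fragments scaled to transcript length and to the mapped total of the library, adjusted for batch by the authors. FPKM is per length, so levels can be set side by side between genes. The number of fragments behind a value is unknown, so errors here are the spread between mice. A log2 fold change is the mean of the second group minus that of the first, and a gene passed when its FDR (Benjamini-Hochberg over all 18167 genes, limma) was at or below 0.05. A fold change of at least 1.5 was a second threshold. MO mice enter both MY vs. MO and WO vs. MO, so the 2 comparisons share them and their values are given side by side.

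Some libraries stood apart or went against a label. WY1 was the lowest of the 3 WY mice in 7 of the 10 genes (36.3% of all genes), and its mean over the 10 genes was 6.70, against 6.97 in WY2 and 6.86 in WY3. WY1 lay below the highest MO mouse in 8 of the 10 genes, a count near its share over all genes (76.3%). The other mice outside MO did so in 1 (WO5, for example) to 4 (WY3) of the 10 genes. Their shares over all genes were alike, from 73.1% (WO5) to 76.9% (WY3). MY2 was the lowest MY mouse in 7 of the 10 genes (34.4% of all) and MO3 the lowest MO mouse in 6 (14.6% of all). In MO5, *Xist*, the transcript of the inactive X chromosome, was at 3.21, while none of the 15 other mice exceeded 0.37. The Y-linked gene *Ddx3y* was at 1.95 in MO5 and at 4.06 or more in every other mouse, so MO5 goes against its label of a male mouse. The oligodendrocyte gene *Mbp* was at 5.36 in WO4 and at 12.16 or more in every other mouse. It was at 14.22 in WO5, 14.11 in MO4 and 14.14 in MO5, and at 13.23 or less in batch 1. All batch 2 mice thus stood apart in *Mbp*, in opposite directions. Results of the 10 genes that rest on WY1 or MO5, and counts in the transport lists and in the larger marker lists, are also given without them. No 2 of the 16 mice had identical values (120 pairs).

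The tissue label was checked against marker genes. Of 5 *Hox* genes of spinal cord position, 0 had a mean FPKM below 1 and *Hoxc8* was the highest (mean 26.6). All 8 neuron markers and all 6 motor neuron markers also had a mean FPKM of at least 1, with *Snap25* (mean 1393) and *Slc5a7* (mean 24.1) the most abundant. The 3 measured sensory neuron markers (*Avil*, *Scn10a*, *Trpv1*) and the 3 skeletal muscle markers (*Acta1*, *Ckm*, *Myh4*) each had a mean FPKM below 1.

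All 10 genes were well expressed. The level of *Klc1* (8.35 ± 0.12, SD over 16 mice) was the highest and that of *Dync1li1* (5.19 ± 0.13) the lowest, and 86.4% of all genes had a lower mean than *Dync1li1*. *Klc1* exceeded *Kif1a* (7.55 ± 0.17) in 16 of 16 mice, and *Kif1a* exceeded *Kif1b* (7.24 ± 0.20) in 16 of 16. *Kif1b* exceeded *Kif5c* (7.09 ± 0.20) in 16 of 16 mice, while *Dctn2* (7.18 ± 0.07) could not be ordered against either, since *Kif1b* exceeded *Dctn2* in 9 of 16 mice and *Dctn2* exceeded *Kif5c* in 8. *Kif5c* lay above *Kif5b* (6.99 ± 0.15) in 14 mice, and *Kif5b* above *Actr1a* (6.75 ± 0.06) in 16. The dynein heavy chain *Dync1h1* (6.11 ± 0.14) and the intermediate chain *Dync1i1* (6.08 ± 0.14) were alike in level, with *Dync1h1* higher in 9 of 16 mice. In FPKM, the median over 16 mice ran from 36.5 for *Dync1li1* to 328.9 for *Klc1*.

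**Figure D1:**
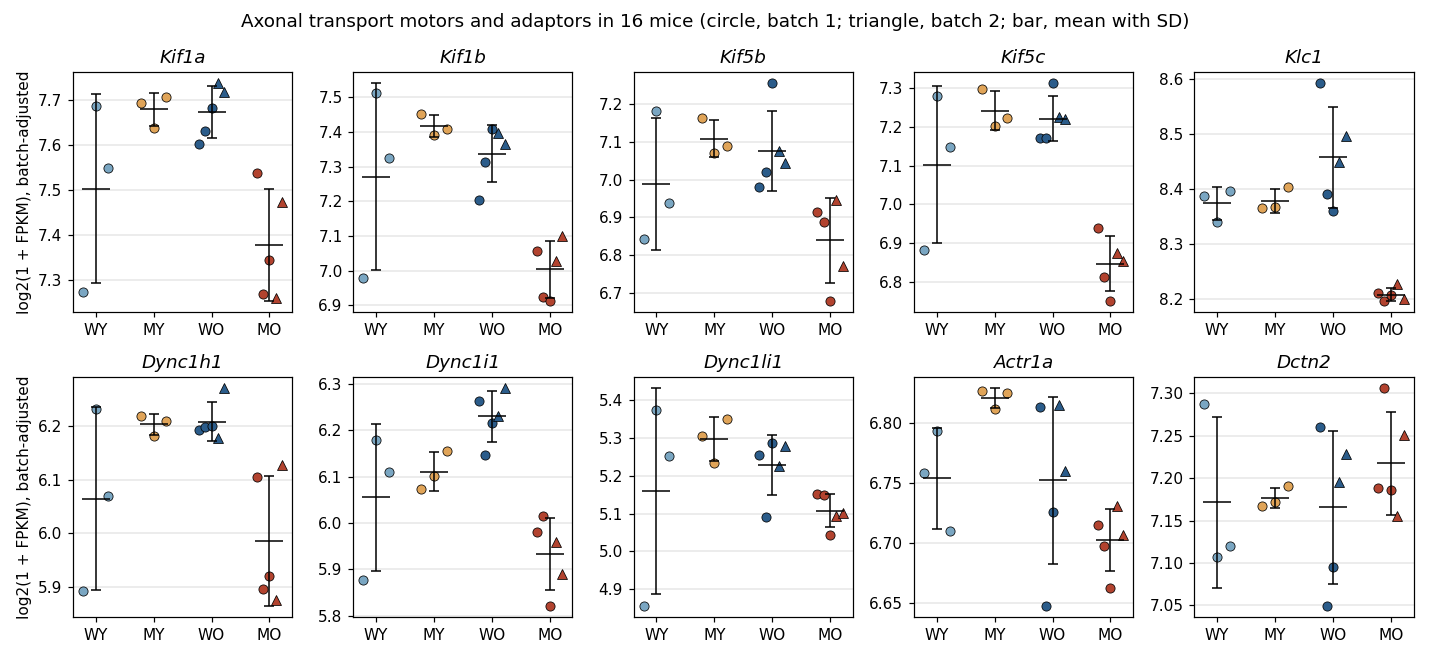
Level of each of the 10 genes in 16 mice, as batch-adjusted log2(1 + FPKM) on the vertical axis, by group; circles are mice of batch 1, triangles mice of batch 2, and bars the group mean with SD. All 5 MO mice lie below all MY and WO mice in 7 panels (1238 of 18167 genes had this order), WY1 is the low WY mouse in 7 panels, and *Dctn2* overlaps in all groups.

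Most of the motor genes were lower at end-stage. In MY vs. MO, 9 of the 10 genes fell at an FDR at or below 0.05, where 12.5% of all genes tested were lower in MO. The gene that did not pass was *Dctn2*, and 0 of the 10 rose, where 13.1% of all genes were higher in MO. In WO vs. MO, 7 of the 10 genes fell, where 12.9% of all genes were lower in MO, and 0 rose, where 15% of all genes were higher. The median log2 fold change of the 10 genes was -0.20 in MY vs. MO and -0.24 in WO vs. MO, while that of all genes was 0.0047 and 0.00035. In these bulk samples, fewer neurons, less RNA per neuron, a change in other cells and a larger share of glial RNA cannot be told apart.

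Each decrease was smaller than 1.5-fold. From MY to MO, 0 of the 10 genes passed both thresholds, as did 0.787% of all genes in the lower direction, and in WO vs. MO 0 of 10 did, against 0.517% of all genes. The difference was nevertheless clear of the spread between mice for most. All MO mice lay below all MY mice in 9 genes, an order found in 15.9% of all genes, and below all WO mice in 7 genes, an order found in 8.65%. Only *Klc1* among the 10 had its 5 MO mice below all 11 other mice (2.66% of all genes). Without MO5, 7 of the 10 genes fell in MY vs. MO and 7 in WO vs. MO, and without WO4 7 fell in WO vs. MO.

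The count in MY vs. MO rested on all 3 MY mice. It was 3 of 10 without MY1, 5 without MY2 and 3 without MY3, while the genes of the whole table that were lower in MO numbered 1132, 1403 and 1162 in place of 2269. With no single mouse left out, the MY vs. MO count was 6 with batch 1 alone or a pseudocount of 0.1, and 7 with batch as a term or all 4 groups in 1 fit. It was 8 with the filter, 9 with the intensity trend and 4 with the replicate block. Of all genes, 2215 were lower with batch 1 alone, 1862 with the pseudocount, 2165 with batch as a term and 2000 with all groups in 1 fit. With the filter 2178 of 13530 genes were lower, with the trend 2108 and with the block 1691. In WO vs. MO the count stayed at 7 or 8 when any 1 of the 10 mice was left out. With batch 1 alone (3 WO and 3 MO mice) it was 2, where 1064 genes of the table were lower, and 7 of the 10 genes had an unadjusted p below 0.05, each negative, as had 5273 of 18167 genes in either direction. Of the genes that passed in either direction, 48.8% were lower in MY vs. MO and 46.2% in WO vs. MO, and quantile normalization moved these shares to 60.6% and 59.3% with 8 and 7 of the 10 genes lower.

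**Figure D2:**
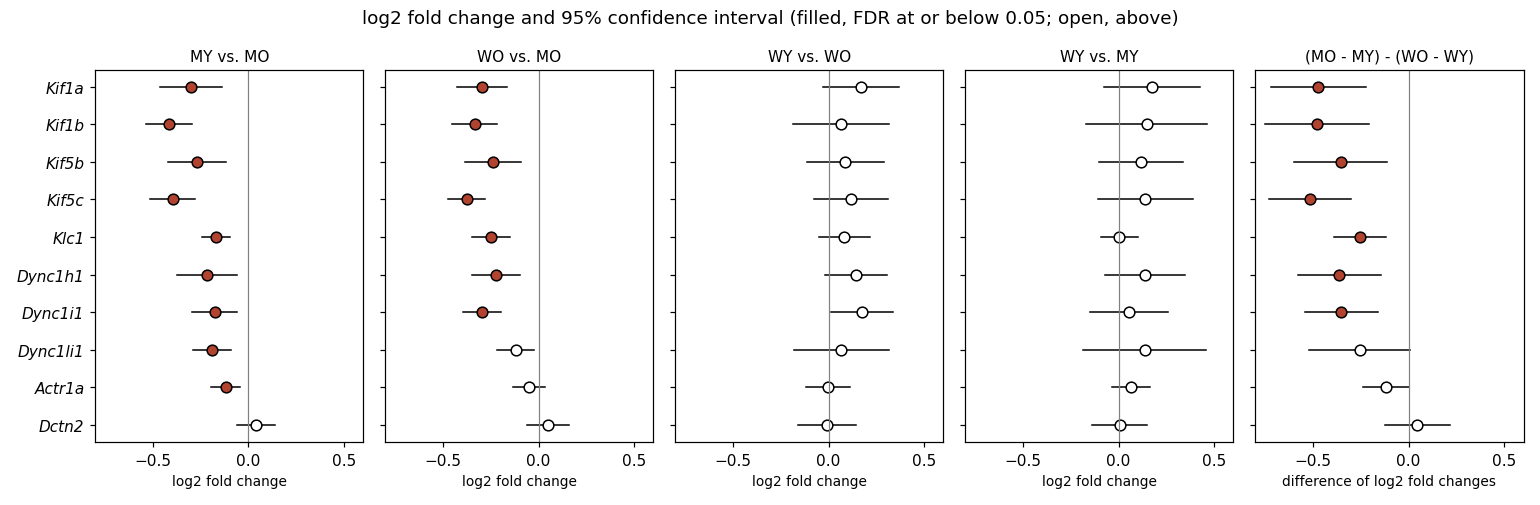
Log2 fold change (dots) with its 95% confidence interval (lines) for the 10 genes in each comparison; filled dots had an FDR at or below 0.05. In the last panel the axis is the difference between the age effect of mutant mice and that of control mice. In the first and second panels 9 and 7 dots are filled, all left of 0, no dot is in the WY vs. WO and WY vs. MY panels, and 7 are in the last.

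*Kif1a* and *Kif1b* encode kinesin-3 motors, monomers that dimerize on cargo. *Kif1a* carries precursors of synaptic vesicles and dense core vesicles, and *Kif1b* has isoforms that carry mitochondria and synaptic vesicle precursors. *Kif1a* was at 7.27, 7.69 and 7.55 in the WY mice and at 7.69, 7.64 and 7.71 in the MY mice. In the old mice it was at 7.60, 7.63, 7.68, 7.74 and 7.72 (WO1 to WO5) and at 7.54, 7.27, 7.35, 7.26 and 7.47 (MO1 to MO5). The MO mice were all below the MY and WO mice, whereas WY1 lay within the MO range and WY3 just above MO1, the highest MO mouse. From MY to MO, *Kif1a* fell by 0.30 (95% CI -0.46 to -0.14, FDR = 0.0158), and in WO vs. MO its log2 fold change was -0.30 (95% CI -0.43 to -0.16, FDR = 0.00387). Mean FPKM (± SD) was 204 ± 5.17 for the 3 MY mice, 203 ± 8.1 for the 5 WO mice and 166 ± 14.5 for the 5 MO mice. The call in MY vs. MO was lost, with an FDR of 0.0644 to 0.0661 when MY1 or MY3 was left out. The call in WO vs. MO was lost with batch 1 alone (FDR = 0.0835; range over 18 settings 0.00134 to 0.0835).

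*Kif1b* was at 6.98, 7.51 and 7.32 in the WY mice and at 7.45, 7.39 and 7.41 in the MY mice. Its levels were 7.20, 7.31, 7.41, 7.40 and 7.37 in WO1 to WO5 and 7.06, 6.92, 6.91, 7.03 and 7.10 in MO1 to MO5. Every MO mouse was below every MY and WO mouse, and WY1 alone among the other mice fell within the MO range. *Kif1b* fell by 0.41 (95% CI -0.53 to -0.29, FDR = 0.00111) in MY vs. MO, the largest decrease of the 10 genes there. Its log2 fold change in WO vs. MO was -0.33 (95% CI -0.45 to -0.22, FDR = 0.000946). Both calls held when any 1 mouse was left out, and the FDR over 16 and 18 alternative settings ran from 0.000926 to 0.00921 and from 0.000632 to 0.0266. Between WO and MO, the difference within batch 1 was -0.25 for *Kif1a* and -0.34 for *Kif1b*. Within batch 2 (2 WO and 2 MO mice) it was -0.36 for *Kif1a* and -0.32 for *Kif1b*.

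*Kif5b* and *Kif5c* encode heavy chains of kinesin-1, the motor of fast outward transport; *Kif5b* is made in most tissues and *Kif5c* mainly in neurons. *Kif5c* was at 6.88, 7.28 and 7.15 in the WY mice and at 7.30, 7.20 and 7.22 in the MY mice. It was at 7.17, 7.17, 7.31, 7.23 and 7.22 in WO1 to WO5 and at 6.94, 6.81, 6.75, 6.87 and 6.85 in MO1 to MO5. The gap between the highest MO mouse and the lowest MY or WO mouse was wider than the whole MO range, and WY1 again lay within that range. *Kif5c* had the smallest p of the 10 genes in WO vs. MO, with a log2 fold change of -0.38 (95% CI -0.47 to -0.28, FDR = 0.000156). In MY vs. MO it fell by 0.40 (95% CI -0.51 to -0.28, FDR = 0.00109). The 5 MO mice averaged 114.1 ± 5.66 FPKM (± SD), against 150 ± 5.4 for the 3 MY mice and 148 ± 6.13 for the 5 WO mice. Within batch 1 the difference from WO to MO was -0.39, and within batch 2 it was -0.36. *Kif5c* passed in both comparisons under every alternative setting, with the FDR at most 0.0107 in MY vs. MO and at most 0.0176 in WO vs. MO.

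*Kif5b* was at 6.84, 7.18 and 6.94 in the WY mice and at 7.16, 7.07 and 7.09 in the MY mice. The old mice had 6.98, 7.02, 7.26, 7.08 and 7.04 (WO1 to WO5) and 6.92, 6.89, 6.68, 6.95 and 6.77 (MO1 to MO5). WO3 was the highest of all mice and MO3 the lowest, the MO mice did not reach the MY or WO mice, and WY1 and WY3 lay within the MO range. *Kif5b* fell by 0.27 (95% CI -0.42 to -0.12, FDR = 0.0195) in MY vs. MO and had a log2 fold change of -0.24 (95% CI -0.38 to -0.090, FDR = 0.0215) in WO vs. MO. The difference from WO to MO was -0.26 within batch 1 and -0.20 within batch 2. In MY vs. MO its FDR was 0.0504 to 0.0877 when MY1, MY2 or MY3 was left out, and in WO vs. MO the call was lost with batch 1 alone (FDR = 0.142) and with the replicate block (FDR = 0.0808; FDR over 18 settings 0.0116 to 0.142).

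*Klc1* encodes a light chain that links kinesin-1 to cargo and holds the idle motor inactive. It was at 8.39, 8.34 and 8.40 in the WY mice and at 8.37, 8.37 and 8.40 in the MY mice. In the old mice its level was 8.59, 8.39, 8.36, 8.45 and 8.50 (WO1 to WO5) and 8.21, 8.20, 8.21, 8.23 and 8.20 (MO1 to MO5). The MO mice were close together and below all 11 other mice, WY1 included, while WO1 and WO5 were the highest. *Klc1* fell by 0.17 (95% CI -0.24 to -0.096, FDR = 0.00641) in MY vs. MO, and its log2 fold change in WO vs. MO was -0.25 (95% CI -0.35 to -0.15, FDR = 0.00204). Within batch 1 the difference from WO to MO was -0.24, and within batch 2 -0.26. Both calls held when any 1 mouse was left out. With the replicate block its FDR in MY vs. MO was 0.0688 (range over 16 settings 0.00665 to 0.0688). Its log2 fold change in MY vs. MO ran from -0.29 to -0.16 over these settings. With batch 1 alone the FDR was 0.0757 in WO vs. MO (range over 18 settings 0.000194 to 0.0757).

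Dynein was represented by its motor subunit *Dync1h1*, by *Dync1i1*, the intermediate chain that binds dynactin and is made mainly in neurons, and by *Dync1li1*, a light intermediate chain that binds cargo adaptors. *Dync1h1* was at 5.89, 6.23 and 6.07 in the WY mice and at 6.22, 6.18 and 6.21 in the MY mice. The old mice had 6.19, 6.20, 6.20, 6.18 and 6.27 (WO1 to WO5) and 6.11, 5.90, 5.92, 5.88 and 6.13 (MO1 to MO5). The WO mice were close together apart from WO5, and the MO mice divided into MO1 and MO5, near the WO range, and 3 lower mice, with WY1 and WY3 within the MO range. *Dync1h1* fell by 0.22 (95% CI -0.37 to -0.061, FDR = 0.0489) in MY vs. MO, close to the threshold, and had a log2 fold change of -0.22 (95% CI -0.35 to -0.099, FDR = 0.0131) in WO vs. MO. Its FDR in that comparison with MY was 0.0793 to 0.149 when MO2, MO3, MO4, MY1, MY2 or MY3 was left out. It was also above 0.05 with batch as a term, quantile normalization, the pseudocount of 0.1 or the replicate block, so that *Dync1h1* passed in 6 of 16 settings (FDR 0.0242 to 0.149) in MY vs. MO. The call in WO vs. MO was lost with batch 1 alone, and *Dync1h1* passed in 17 of 18 settings (FDR 0.0056 to 0.0818) there.

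*Dync1i1* was at 5.88, 6.18 and 6.11 in the WY mice and at 6.07, 6.10 and 6.16 in the MY mice. Its levels were 6.26, 6.15, 6.22, 6.23 and 6.29 in WO1 to WO5 and 5.98, 6.01, 5.82, 5.96 and 5.89 in MO1 to MO5. WO mice had the highest group mean and MO mice the lowest, and WO1 to WO5 overlapped with the young groups but not with MO, while WY1 lay within the MO range. From WO to MO the log2 fold change of *Dync1i1* was -0.30 (95% CI -0.40 to -0.20, FDR = 0.000789), and from MY to MO it fell by 0.18 (95% CI -0.30 to -0.058, FDR = 0.0375). The FDR in MY vs. MO was 0.06 to 0.144 when MO3, MO5, MY1, MY2 or MY3 was left out. It was above 0.05 with batch 1 alone, batch as a term, all 4 groups in 1 fit, the pseudocount of 0.1 and the replicate block too, and *Dync1i1* passed in 6 of 16 settings (FDR 0.0145 to 0.164) in MY vs. MO. For WO vs. MO it passed in 17 of 18 settings (FDR 0.000518 to 0.05), and batch 1 alone lay just above the threshold. Within batches, the difference from WO to MO was -0.27 (batch 1) and -0.34 (batch 2) for *Dync1i1*. For *Dync1h1* it was -0.22 in both batches.

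*Dync1li1* was at 5.25, 5.09, 5.29, 5.23 and 5.28 in WO1 to WO5 and at 5.15, 5.15, 5.04, 5.09 and 5.10 in MO1 to MO5. Among the young mice it ran from 4.85 (WY1) to 5.37 (WY2) in WY and from 5.23 to 5.35 in MY. WY1 was the lowest of all 16 mice, and WO2 was the only WO mouse in the MO range. *Dync1li1* fell by 0.19 (95% CI -0.29 to -0.089, FDR = 0.0148) in MY vs. MO. In WO vs. MO it did not pass, with a log2 fold change of -0.12 (95% CI -0.22 to -0.022, FDR = 0.0666). The FDR there was 0.0131 without WO2 (range over 18 settings 0.0131 to 0.432), and in MY vs. MO it was 0.0639 to 0.073 when MY1 or MY3 was left out. That call was lost as well with batch 1 alone, all 4 groups in 1 fit or the replicate block, and *Dync1li1* passed in 11 of 16 settings (FDR 0.0125 to 0.133) in MY vs. MO.

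*Actr1a* encodes Arp1, which forms the short actin-like filament at the core of dynactin, and *Dctn2* encodes dynamitin, a subunit of the shoulder that joins this filament to the dynein-binding arm. *Actr1a* was at 6.83, 6.81 and 6.83 in the MY mice and at 6.72, 6.70, 6.66, 6.73 and 6.71 in MO1 to MO5, without overlap. It ran from 6.71 to 6.79 in WY and from 6.65 to 6.82 in WO, and the MO mice lay within the WO range. *Actr1a* fell by 0.12 (95% CI -0.20 to -0.042, FDR = 0.033) in MY vs. MO, the smallest of the 9 decreases, and its log2 fold change in WO vs. MO was -0.050 (95% CI -0.14 to 0.036, FDR = 0.394). The FDR in MY vs. MO was 0.0522 to 0.117 when MO2, MO3, MO5, MY1, MY2 or MY3 was left out. Batch 1 alone, the filter, the pseudocount of 0.1 and the replicate block also put it above 0.05, and *Actr1a* passed in 6 of 16 settings (FDR 0.0369 to 0.135) in MY vs. MO.

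*Dctn2* ran from 7.11 to 7.29 in WY, from 7.17 to 7.19 in MY, from 7.05 to 7.26 in WO and from 7.16 to 7.31 in MO. All groups overlapped, and neither comparison with MO passed. Its log2 fold change was 0.041 (95% CI -0.059 to 0.14, FDR = 0.558) in MY vs. MO. In WO vs. MO it was 0.052 (95% CI -0.058 to 0.16, FDR = 0.502). Over 16 and 18 alternative settings these values ran from 0.013 to 0.056 and from 0.022 to 0.092, and 0 passed. Whether *Dctn2* differed from the other genes was not tested.

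Between the control groups of different age the motor genes showed no call. In WY vs. WO, 0 of the 10 genes passed (limma), where 1.12% of all genes passed in either direction, and 1 of the 10 had an unadjusted p below 0.05, as had 2447 of 18167 genes. The share of 1.12% rested on single libraries, with 204 genes in all, 40 without WY1, 9 without WY3 and 55 without WO2. The gene of the 10 with such a p was *Dync1i1*, named after its value was seen, with a log2 fold change of 0.17 (95% CI 0.013 to 0.33, FDR = 0.324). The log2 fold changes of the 10 genes ran from -0.0055 (*Dctn2*) to 0.17 (*Dync1i1*), with 8 of 10 positive and a median of 0.085. All intervals of the 10 genes lay within 0.37 of 0. Without WY1 the median was 0.034, and the log2 fold changes of *Kif1b* and *Dync1li1* turned to -0.080 and -0.085, with 0 genes passing. That of *Dync1i1* was then 0.085 and that of *Kif1a* 0.056, against 0.17 with all mice. Without WY2 the median was 0.185, the count at an unadjusted p below 0.05 was 4 (2755 of all genes) and 0 of the 10 passed. That count was 0 without WY1, WO1, WO3, WO4 or WO5.

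Before symptoms, the mutant mice showed no call either. In WY vs. MY, 0 of the 10 genes passed, where 0.0055% of all genes (1 of 18167) passed in either direction, and 0 of the 10 had an unadjusted p below 0.05 (limma). All 10 log2 fold changes were positive, from 0.0044 (*Klc1*) to 0.18 (*Kif1a*), with a median of 0.13. The confidence intervals all held 0 and reached 0.46 for *Kif1b* and *Dync1li1*. *Actr1a* alone had all 3 MY mice above all 3 WY mice, an order found in 6.15% of all genes. Without WY1, the median was 0.038, *Kif1a* was at 0.061 and 3 of the 10 values were negative. Without WY2, the median was 0.219, 2 of the 10 values were negative and 4 had an unadjusted p below 0.05, with 0 passing. Such a p was found in 3001 of 18167 genes without WY2, against 1301 with all mice. With 3 mice in each group, a value as low as -0.19 for *Dync1li1* lay within the interval.

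The decrease with age and stage was also compared between genotypes, as (MO - MY) - (WO - WY) over all 16 mice. This difference was below 0 at an FDR at or below 0.05 for 7 of the 10 genes, where 7.19% of all genes were. It was -0.51 (95% CI -0.73 to -0.30, FDR = 0.00302) for *Kif5c*. For the kinesin-3 genes it was -0.47 (95% CI -0.72 to -0.22, FDR = 0.0118) (*Kif1a*) and -0.48 (95% CI -0.75 to -0.21, FDR = 0.018) (*Kif1b*). *Dync1h1*, *Dync1i1* and *Klc1* had differences of -0.36, -0.35 and -0.25 with an FDR of 0.0239, 0.0138 and 0.0129. Over 24 alternative settings the difference of *Klc1* ran from -0.41 to -0.22. *Kif5b* was near the threshold at -0.36 (95% CI -0.60 to -0.11, FDR = 0.0448). The genes that did not pass were *Dync1li1* (-0.26, FDR = 0.171), *Actr1a* (-0.12, FDR = 0.172) and *Dctn2* (0.046, FDR = 0.752; -0.012 with quantile normalization). Without WY1, *Dync1li1* was at -0.10 and *Dctn2* at -0.012.

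WY1 enters this test. Without it 5 of the 10 genes passed, without MO5 6 did, without both 6 did, and without WO4 6 did. The count was also 5 without MY1 or MY3 and 8 without WY2, and 6 with batch as a term, the pseudocount of 0.1 or the replicate block. The genes of the whole table below 0 numbered 882 without WY1, 760 without MY1 and 797 without MY3, in place of 1307. They numbered 1851 without WY2, 1273 with batch as a term, 1083 with the pseudocount and 1106 with the replicate block. Quantile normalization moved the share of calls below 0 from 40.7% to 53.2%, with 7 of the 10 genes below 0. *Kif5c*, *Kif1a*, *Kif1b*, *Klc1* and *Dync1i1* passed whichever 1 of the 16 mice was left out, although with batch 1 alone (12 mice) 1 gene, *Kif5c*, passed. *Dync1h1* had an FDR of 0.0553 to 0.0686 when MY1, MY3 or WY1 was left out. With 1 mouse removed at a time, *Kif5b* passed in only 4 of 16 fits, with an FDR of 0.0521 to 0.133 when MO2, MO3, MO5, MY1, MY2, MY3, WO2, WO3, WO4, WO5, WY1 or WY3 was left out. *Dync1li1* passed without WY2 (FDR = 0.0322; range over 24 settings 0.0322 to 0.474).

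Other genes of the same transport machinery were counted in 6 lists, of which 78 genes were measured. These lists too were chosen with earlier results of these data known. In MY vs. MO, 31 of them were lower (12.5% of all genes were) and 1 was higher (13.1% of all). In WO vs. MO 33 were lower (12.9% of all genes were) and 1 was higher (15% of all), and these shares of all genes apply to each list below. Without MO5, 29 were lower in MY vs. MO and 28 in WO vs. MO, and without WO4 27 were lower in WO vs. MO. The median log2 fold change of the 78 genes was -0.13 in both. The 13 genes of other kinesin motors included the accessory subunit *Kifap3*. Of these 13, 6 were lower in MY vs. MO and 8 in WO vs. MO (6 and 6 without MO5), with 0 higher. *Kif13b*, a kinesin-3 motor, fell most, by 0.69 in MY vs. MO (FDR = 0.000801) and by 0.64 in WO vs. MO (FDR = 0.000275). *Kif3c*, a kinesin-2 motor, had log2 fold changes of -0.34 (FDR = 0.00345) and -0.29 (FDR = 0.00294).

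*Kif5a*, the third kinesin-1 heavy chain, is neuronal and is mutated in familial motor neuron disease. Its levels were 8.43, 8.36 and 8.45 in the MY mice, 8.37, 8.27, 8.45, 8.49 and 8.43 in WO1 to WO5 and 8.02, 7.86, 7.89, 8.07 and 7.98 in MO1 to MO5, and 7.97, 8.57 and 8.26 in the WY mice. The MO mice were below all MY and WO mice, and WY1 was within the MO range. Its log2 fold change was -0.45 (95% CI -0.58 to -0.32, FDR = 0.00103) in MY vs. MO and -0.44 (95% CI -0.56 to -0.32, FDR = 0.000211) in WO vs. MO, larger in size than those of *Kif5b* and *Kif5c*, although differences between genes were not tested. Its age effect differed between genotypes by -0.58 (FDR = 0.0102). Both of its calls against MO held without MO5, and the age effect by genotype passed without WY1, without MO5 and without both.

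Among 17 kinesin light chains and kinesin adaptors, 10 were lower in MY vs. MO and 11 in WO vs. MO (11 and 11 without MO5), with 0 higher. The light chain *Klc2* had log2 fold changes of -0.27 (FDR = 0.00443) and -0.38 (FDR = 0.000111), and *Trak2*, an adaptor for mitochondria, -0.40 (FDR = 0.00147) and -0.29 (FDR = 0.00671). *Fez1*, a kinesin-1 adaptor, fell by 0.45 in MY vs. MO (FDR = 0.00677) and had -0.26 in WO vs. MO (FDR = 0.053). On the microtubule track, 8 of 15 genes for tubulins and microtubule-associated proteins were lower in MY vs. MO and 9 in WO vs. MO, with 0 higher, and without MO5 these counts were 5 and 7. With all mice the lower genes included the tubulin *Tubb4a*, made in oligodendrocytes and neurons (-0.57, FDR = 0.0419, and -0.48, FDR = 0.0365). The neuronal microtubule proteins *Map1a* (-0.52 and -0.44, FDR = 0.0019 and 0.000703) and *Map1b* (-0.49 and -0.43, FDR = 0.00219 and 0.00206) fell in both.

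Of 9 other dynein subunits, 1 was lower in MY vs. MO and 2 in WO vs. MO (1 and 1 without MO5), with 0 higher. The light intermediate chain *Dync1li2* had log2 fold changes of -0.27 (FDR = 0.00499) and -0.20 (FDR = 0.00631), and the light chain *Dynll2* -0.17 (FDR = 0.0904) and -0.21 (FDR = 0.0266). Of 10 other dynactin subunits, 2 were lower and 1 was higher in MY vs. MO, and 1 was lower and 1 higher in WO vs. MO, and the counts were the same without MO5. The higher gene was *Capzb*, which caps actin filaments as well as the Arp1 filament (0.15, FDR = 0.0255, and 0.27, FDR = 0.00301). *Dctn4* had -0.18 (FDR = 0.013) in MY vs. MO and -0.043 (FDR = 0.401) in WO vs. MO.

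*Dctn1* encodes p150Glued, the dynactin arm that binds dynein and microtubules, and is mutated in familial motor neuron disease. It was at 6.78, 6.81 and 6.81 in the MY mice, at 6.89, 6.82, 6.75, 6.87 and 6.93 in WO1 to WO5 and at 6.60, 6.49, 6.55, 6.53 and 6.69 in MO1 to MO5. In the WY mice it was at 6.66, 6.73 and 6.80. The MO mice lay below all MY and WO mice, with MO5 the highest of them, and WY1 was within the MO range. Its log2 fold change was -0.23 (95% CI -0.34 to -0.12, FDR = 0.0111) in MY vs. MO and -0.28 (95% CI -0.38 to -0.17, FDR = 0.00154) in WO vs. MO. Of 14 dynein regulators and activating adaptors, 4 were lower in MY vs. MO (12.5% of all genes) and 2 in WO vs. MO (12.9% of all genes), with 0 higher and the same counts without MO5. The adaptor *Bicd2* had -0.31 (FDR = 0.00603) and -0.27 (FDR = 0.00532) and the adaptor *Hook3* -0.25 (FDR = 0.00693) and -0.17 (FDR = 0.0119). *Pafah1b1*, which encodes the dynein regulator Lis1, had -0.23 (FDR = 0.00915) and -0.13 (FDR = 0.0658).

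**Figure D3:**
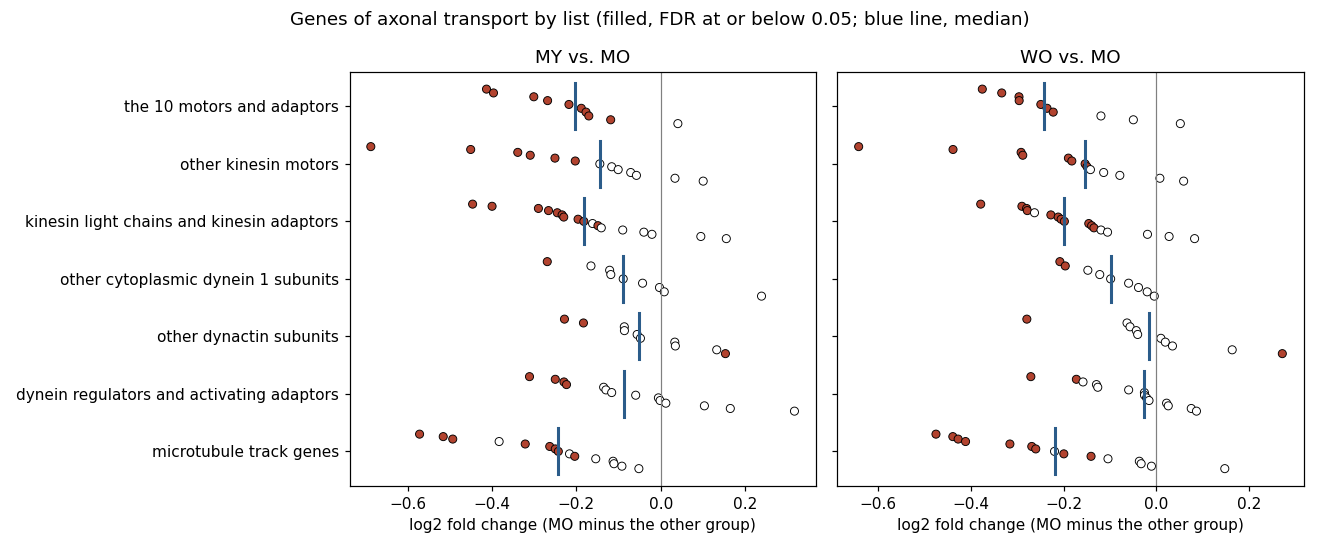
Log2 fold change (horizontal axis) of the 10 genes and of the measured genes of 6 transport lists in MY vs. MO and WO vs. MO; each dot is a gene, filled at an FDR at or below 0.05, and the blue line is the median of a list. Filled dots lie left of 0 apart from 1 dynactin gene, and the medians of both kinesin lists and of the track genes lie further left than those of the other dynein and dynactin lists.

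In the other comparisons the 78 genes gave 2 calls in WY vs. WO (1.12% of all genes passed), *Tubb2b* (-0.40, FDR = 0.0294) and *Plekhm2* (0.27, FDR = 0.0461), both named after their values were seen, and 0 in WY vs. MY. For 22 of the 78 the age effect was lower in mutant than in control mice, and for 0 it was higher, where 7.19% of all genes were below 0 and 1903 of 18167 above. That count was 16 without WY1, 20 without MO5 and 16 without both. Neither *Tubb2b* nor *Plekhm2* passed without WY1.

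Markers of neurons and glia moved with the same groups. Of the 8 neuron markers, 4 (*Rbfox3*, *Snap25*, *Syp* and *Eno2*) were lower and 1 (*Gap43*, a gene of growing and regrowing axons) was higher in MO, both against MY and against WO. The shares of all genes apply to every marker list here and below. They were 12.5% lower and 13.1% higher in MY vs. MO, and 12.9% and 15% in WO vs. MO. The summed FPKM of the neuron markers was 3221, 3171 and 3148 in the WY mice, 3259, 3158 and 3263 in MY, 3696, 3338, 3410, 3263 and 3461 in WO and 2765, 2973, 2823, 3114 and 2801 in MO. Every MO sum was below every other. *Snap25* led these sums, with a mean FPKM of 1354 in WY, 1437 in MY, 1588 in WO and 1195 in MO. WO and MO mice overlapped in *Syt1*, *Stmn3* and *Thy1*, so the order of the sums does not hold for each marker. Of the 6 motor neuron markers, 5 (*Chat*, *Slc5a7*, *Slc18a3*, *Mnx1* and *Chodl*) were lower in both comparisons. Their sums were 63, 84.3 and 86.4 in WY, 82.8, 88.1 and 79 in MY, 103, 91.2, 93.2, 89.6 and 95.8 in WO and 56.8, 59.1, 47, 62.8 and 54.2 in MO. WY1, low in most motor genes, was also the lowest mouse outside MO here. Without MO5, 3 neuron and 4 motor neuron markers were lower in MY vs. MO, and 3 and 5 in WO vs. MO. The part of these shifts in the values of the 10 genes was not tested.

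Of the 7 microglia markers, 6 were higher in MO in both comparisons, with *C1qa* the most abundant (mean FPKM 120). Their sums were 161.1, 139.6 and 160.3 in WY, 137.1, 157.0 and 151.1 in MY, 165.1, 175.5, 189.5, 122.8 and 114.2 in WO and 579.2, 867.5, 1039.0, 553.1 and 608.1 in MO. Astrocyte markers, led by *Gfap* (mean FPKM 1289), were higher for 4 of 7 genes in MY vs. MO and for 6 of 7 in WO vs. MO. Their sums were 2456, 2363 and 2280 in WY, 2197, 2252 and 2198 in MY, 2006, 1915, 2047, 2070 and 1857 in WO and 3599, 4405, 3943, 3396 and 3565 in MO. Every MO mouse exceeded every other mouse in both sums. Without MO5, 6 microglia markers were higher in each comparison, as were 4 astrocyte markers in MY vs. MO and 5 in WO vs. MO. Of 7 oligodendrocyte markers, led by *Mbp* (mean FPKM 8516), 4 were lower in MY vs. MO and 2 in WO vs. MO. Their sums were 16173, 13935 and 14269 in WY, 14622, 14096 and 13749 in MY, 10033, 9296, 9317, 5064 and 23722 in WO and 6912, 7397, 7563, 21928 and 21283 in MO, so that the batch 2 mice WO4, WO5, MO4 and MO5 stood apart from the batch 1 mice of their groups. Without MO5 5 oligodendrocyte markers were lower in MY vs. MO and 1 in WO vs. MO, and without WO4 1 was lower in WO vs. MO. FPKM is a share of each library, and whether the higher glial RNA of MO mice had a part in the lower values of the 10 genes was not tested.

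The remaining lists had few calls. Of 3 oligodendrocyte precursor genes (*Gpr17* most abundant, mean FPKM 15.4), 1 was lower in MY vs. MO and 0 in WO vs. MO. Of 3 endothelial genes (*Cldn5*, mean 19.5), 0 and 2 were lower, and of 3 skeletal muscle genes 0 and 1. The muscle call was lost without MO5 or without WO4, and without WO4 3 endothelial genes were lower in WO vs. MO. Blood (*Hba-a1*, mean 60.7) and meningeal fibroblast genes (*Dcn*, mean 7.59) gave 0 calls. Of the 3 sensory neuron genes, *Avil* was higher in both comparisons. Of the 5 *Hox* genes, 1 was lower in MY vs. MO, and 1 was lower and 1 higher in WO vs. MO, the higher call being lost without MO5. In WY vs. WO, 4 oligodendrocyte, 1 precursor and 2 astrocyte genes were lower in WO, where 1.12% of all genes passed, and without WY1 only the precursor gene count stayed, at 1. In WY vs. MY 0 genes of these lists passed. Summed FPKM over mice ran from 19.2 to 36.1 for the precursors, 21.6 to 41.7 for endothelium and 11.7 to 96.8 for blood. It ran from 7.74 to 11.9 for meningeal fibroblasts, 0.32 to 1.19 for muscle, 0.14 to 0.74 for sensory neurons and 69.9 to 90.1 for the *Hox* genes.

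Over the 16 mice, the motor genes varied together apart from *Dctn2*. These correlations are descriptions, since all values of a mouse share its library and the batch adjustment, and the groups themselves differ. Of the 45 pairs, *Kif1b* and *Kif5c* had the highest Pearson correlation (r = 0.966), followed by *Kif1a* and *Dync1h1* (r = 0.965). The 36 pairs without *Dctn2* ran from 0.376 to 0.966 (median 0.751). The 9 pairs with *Dctn2* ran from -0.555 (*Kif1b*) to 0.185 (*Actr1a*), with a median of -0.382. After each group's mean was subtracted, the 45 pairs had a median of 0.43 and ran from -0.576 to 0.929. Without WY1 and MO5 (14 mice), the 36 pairs without *Dctn2* ran from 0.441 to 0.972 (median 0.742) and the 9 with it from -0.457 to 0.257 (median -0.276).

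Among 13529 other genes with a mean of at least 1, those most like *Kif5c* were *Steap2* (r = 0.984), *Ahcyl1* (0.98), *Trim37* (0.978), *D430041D05Rik* (0.977) and *Ppm1e* (0.976). The gene most like *Kif1a* was *Med12l* (r = 0.976), that most like *Kif1b* was *Map1a* (0.984) and that most like *Kif5b* was *Reps2* (0.946). *Klc1* was most like *Chga* (r = 0.976), which encodes chromogranin A of dense core vesicles. For the dynein genes the most alike were *Map3k9* for *Dync1h1* (r = 0.971), *Pip5k1b* for *Dync1i1* (0.972) and *Cdh18* for *Dync1li1* (0.95). *Actr1a* was most like *Pdxdc1* (r = 0.867) and *Dctn2* most like *Ppm1j* (0.854), the lowest of these values.

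The 10 genes lie on 9 chromosomes of GRCm38 (GENCODE M21), 2 of them, *Dync1h1* and *Klc1*, on chromosome 12. Their positions are chr1:93015464-93101951 on the minus strand for *Kif1a*, chr4:149176319-149307693 on the minus strand for *Kif1b* and chr18:6201002-6242174 on the minus strand for *Kif5b*. *Kif5c* is at chr2:49619298-49774778, *Klc1* at chr12:111758849-111807844, *Dync1h1* at chr12:110601452-110666945, *Dync1i1* at chr6:5725639-6028039 and *Dync1li1* at chr9:114688790-114724302, all on the plus strand. *Actr1a* is at chr19:46376811-46395748 on the minus strand and *Dctn2* at chr10:127266368-127281950 on the plus strand. The start of *Kif5a* is 3019 bp from that of *Dctn2*, on the other strand, and of these neighbours *Kif5a* fell and *Dctn2* did not pass.

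Some of these genes overlap others. A stranded kit (TruSeq Stranded mRNA) was used, but whether fragments were counted by strand is not given in the sources used here. *Klc1* overlaps *Xrcc3* on the other strand by 4653 bp, and *Dync1i1* overlaps *1700019G24Rik* on the other strand by 13485 bp. *Xrcc3* had a mean level of 2.90 in MO and 3.25 in WO, far below *Klc1*, with a log2 fold change of -0.35 (95% CI -0.62 to -0.078, FDR = 0.0568) in WO vs. MO. *1700019G24Rik* was below 0.5 in every mouse. Overlapping models on the other strand of *Kif5b* and *Dync1h1*, and a pseudogene within *Kif5c* on the same strand, were not in the table. Of the 36-base windows of the longest coding transcript, 5.3% were shared with another gene for *Kif5b*, 2.61% for *Dync1li1* and 2.57% for *Dync1h1*. For *Kif5b* and *Dync1h1* the gene sharing most windows was such an overlapping model, and its reads there cannot be told apart from those of the host gene without strand. The share was 0.233% for *Kif1a*, 0.00981% for *Kif1b* and 0 for the 5 other genes.

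Promoters were read because most of these genes moved together. RefSeq windows from 250 bases before to 50 after a gene start (GRCm38.p6) were found for 9 of the 10 genes, all but *Kif5b*, and 3 short motifs were searched on both strands. The cAMP response element TGACGTCA, which binds CREB and related factors, was in the windows of *Kif5c* and *Klc1* and in 1.79% of all 32851 windows. GCGCATGC, the core of the sites of NRF1, was in those of *Dync1li1* and *Actr1a* and in 2.71% of all. GGGCGG, the GC box, was in those of 6 genes (*Kif1b*, *Kif5c*, *Klc1*, *Dync1h1*, *Dync1li1* and *Actr1a*) and in 35.7% of all. A match describes the letters only. The 100 bases shown hold the first match in capitals (CRE in *Kif5c* and *Klc1*, NRF1 core in *Dync1li1* and *Actr1a*, where 2 overlapping matches of opposite strands join in *Dync1li1*), written 5′ to 3′ on the strand of the gene. They are chr2:49619186-49619285 (plus strand), chr12:111758768-111758867 (plus), chr9:114688603-114688702 (plus) and chr19:46395742-46395841 (minus). The matches start 26, 33, 178 and 10 bases before the gene start.
Kif5c: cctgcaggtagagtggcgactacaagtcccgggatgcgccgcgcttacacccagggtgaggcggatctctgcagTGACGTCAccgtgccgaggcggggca
Klc1: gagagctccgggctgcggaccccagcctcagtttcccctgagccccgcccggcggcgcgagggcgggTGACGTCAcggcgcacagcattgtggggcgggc
Dync1li1: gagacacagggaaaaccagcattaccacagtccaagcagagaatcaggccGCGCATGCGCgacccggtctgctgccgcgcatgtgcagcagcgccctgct
Actr1a: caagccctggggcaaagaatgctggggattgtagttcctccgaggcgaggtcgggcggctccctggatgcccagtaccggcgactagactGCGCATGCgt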

How the data were processed

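The deposited table holds log2(1 + FPKM) values that the authors adjusted for batch with ComBat of sva. The submitters' processing notes name Trimmomatic, TopHat and Cufflinks with mm10, and give no versions, covariates or strand of counting. All 16 columns were mapped to samples, so 0 were not mapped. Values were tested as deposited, without a further pseudocount or filter, and a fold change on this scale understates the change of low genes. Each comparison was fitted with limma 3.58.1 (R 4.3.3) on the mice of its groups, and the age effect by genotype on all 16 mice, with Benjamini-Hochberg FDR over 18167 genes. The script was tested on simulated data. Tables and figures used Python 3.11.15, NumPy 2.4.6, pandas 2.3.3 and matplotlib 3.10.9. Positions come from GENCODE M21 (GRCm38) and promoters from RefSeq (GRCm38.p6).

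The members and lists were chosen with earlier results of these data known. The pathway lists were other kinesin motors (with the accessory subunit *Kifap3*), kinesin light chains and kinesin adaptors, and other cytoplasmic dynein 1 subunits. Of the dynein subunits, *Dynlt1c* and *Dynlt1f* were not in the table. The remaining pathway lists were other dynactin subunits, dynein regulators and activating adaptors (*Bicdl1* as *Ccdc64*), and microtubule track genes. Marker lists reported here were those of neurons, motor neurons, oligodendrocytes and their precursors, astrocytes, microglia, sensory neurons, blood, skeletal muscle, endothelium, meningeal fibroblasts and spinal cord position. Of each pathway list, the 3 genes with the largest absolute log2 fold change that passed against MY or WO mice are named, with *Kif5a* and *Dctn1* always. Likeness names the gene of highest Pearson correlation with each member, and 5 for the member of smallest p in WO vs. MO. For some genes no result is given. Alternatives were batch 1 only, batch as a term, a filter at a mean of at least 1, quantile normalization, a fit of all 4 groups, an intensity trend, a pseudocount of 0.1, a replicate block and each mouse left out.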

Additional observations from a re-analysis of the deposited data

Results flagged for a closer look

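Among the 5 WO mice, the *Dync1h1* level of WO5 (6.27) lay apart from the other 4 by Dixon's test. This was 1 of 20 groups of 5 mice tested, each with a chance of about 1 in 20. The age effect differed between genotypes for 7 of the 10 genes (limma), by -0.47 for *Kif1a*, -0.48 for *Kif1b*, -0.36 for *Kif5b* and -0.51 for *Kif5c*. It differed by -0.25 for *Klc1*, -0.36 for *Dync1h1* and -0.35 for *Dync1i1*.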

How the results depend on the processing

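In MY vs. MO, 9 of the 10 genes were lower, and the replicate block gave 4, the other fits of all mice or of batch 1 only 6 to 9. Leaving out 1 mouse gave 3 to 9, with 3 without MY1, 5 without MY2 and 3 without MY3. In WO vs. MO, 7 were lower, batch 1 only gave 2 and the replicate block 6, while leaving out 1 mouse gave 7 to 8. The age effect by genotype was below 0 for 7 genes, for 1 with batch 1 only, for 6 with batch as a term, the pseudocount or the replicate block, and for 5 to 8 with 1 mouse left out. Leaving out WY1 and MO5 together gave 6, an alternative chosen after seeing the data, as were the counts of the lists without WY1, MO5, both or WO4 and the correlations without WY1 and MO5. By the labels, mice of the same number were of the same batch, and nothing else paired them. The correlations of their deviations were 0.0853 to 0.177 in MY vs. MO, -0.207 to 0.0913 in WO vs. MO, -0.129 to 0.377 in WY vs. WO and -0.2 to -0.0194 in WY vs. MY.

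Some small values changed sign, none of which passed. In WY vs. WO, quantile normalization gave 0.025 for *Actr1a* and 0.025 for *Dctn2*. With 1 mouse left out there, *Kif1b* ran from -0.080 to 0.19, *Dync1li1* from -0.085 to 0.17, *Actr1a* from -0.024 to 0.025 and *Dctn2* from -0.038 to 0.052. In WY vs. MY, *Kif1b* ran from -0.00048 to 0.27, *Klc1* from -0.013 to 0.015, *Dync1i1* from -0.034 to 0.12, *Dync1li1* from -0.016 to 0.24 and *Dctn2* from -0.027 to 0.063. For the age effect by genotype, *Dctn2* was -0.012 with quantile normalization and -0.020 without WY1 and MO5 together, and ran from -0.012 to 0.078 with 1 mouse left out. Batch 1 only and batch as a term did not apply to WY vs. MY, since all its mice are of batch 1. The cause of these shifts was not tested.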
